A study of Homo sapiens with 8 samples.

Results

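The EGR, IER and KLF early response genes were followed here as 10 genes taken by symbol from the gene column of the deposited count tables, out of 58828 genes listed there. They are the zinc finger transcription factors EGR1, EGR2 and EGR3, the immediate early response genes IER2, IER3 and IER5, and the Krüppel-like factors KLF2, KLF4, KLF6 and KLF10. All 10 had enough reads to be tested.

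Early response genes are switched on by growth factors and by stress before new protein is made, mostly through MAP kinases that act on serum response factor, its ternary complex partners and CREB at the promoter. The EGR proteins then bind GC-rich sites in their own targets and are held back by the NAB co-repressors, and KLF proteins bind related GC-rich or CACCC sites in genes of growth and differentiation. IER proteins have no DNA-binding domain of the zinc finger type and act in stress and survival signalling.

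The study asked how PAGE4, a cancer testis antigen of the prostate, acts in prostate cancer cells under oxidative stress. 22RV1 and DU145, both established human prostate cancer cell lines, carried an empty vector or HA-tagged PAGE4 in a doxycycline-inducible lentiviral vector, were kept as puromycin-selected pools, and received doxycycline whether they carried PAGE4 or not. Each of the 4 cell populations was treated for 12 h with PBS or with 200 mM H2O2, the dose that labels and methods give. This makes 8 conditions with 1 library each, and the 8 groups are named below by line, construct and treatment.

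The 8 libraries held 25482984 to 43310401 counted reads. PAGE4 had 0 or 1 reads in the 4 vector libraries and 1001 to 1489 in the 4 PAGE4 libraries. Of 8 luminal and androgen receptor markers, 7 reached 100 reads in 22RV1 cells and 1 did in DU145 cells, where 6 never passed 10 reads. Of 5 markers of DU145, all 5 reached 100 reads in DU145 cells and 4 did in 22RV1 cells. Their summed reads were 23719 to 28962 in DU145 and 10300 to 18401 in 22RV1 cells. VIM and S100A2 had more reads in DU145 cells in each matched condition, before scaling to library size. EGFR did too except in vector cells with PBS, with 8220 reads against 8937 in 22RV1 cells. That DU145 library was the smaller, with 30107611 counted reads against 43310401. CD44 and LGALS1 had more reads in 22RV1 cells in each matched condition, with 4014 and 4431 against 2245 and 1744 in vector cells with PBS. Of 7 markers of blood, stromal and endothelial cells, 1 (COL1A1) reached 100 reads in either line.

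Promoter sequence is shown first for EGR1, because EGR1 and EGR2 were the members with a CArG box among the 7 whose promoter windows were read, the binding site of serum response factor. The 250 bases before the EGR1 start site were read on the plus strand of GRCh38.p14 from RefSeq, at chr5:138465229-138465478, with the CArG boxes in capitals.
EGR1: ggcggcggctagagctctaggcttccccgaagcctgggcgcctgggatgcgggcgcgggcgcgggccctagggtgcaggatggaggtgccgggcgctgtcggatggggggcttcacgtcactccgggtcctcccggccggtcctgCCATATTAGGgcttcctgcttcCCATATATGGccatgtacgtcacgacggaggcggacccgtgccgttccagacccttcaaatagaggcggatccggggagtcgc

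The 2 boxes of EGR1 lie 105 to 96 and 83 to 74 bases before the start site. EGR2 has 3 RefSeq start sites, and 1 box lies 71 to 62 bases before the innermost of them, at chr10:62816428-62816437 on the minus strand. The boxes are set side by side with 10 bases on each side.
EGR1 distal box: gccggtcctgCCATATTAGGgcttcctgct
EGR1 proximal box: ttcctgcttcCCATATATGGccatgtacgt
EGR2 box: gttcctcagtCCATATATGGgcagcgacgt

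The proximal EGR1 box and the EGR2 box have the same 10 letters. Windows of 250 bases were read for 7 members, 9 windows in all, and both strands were searched. A CArG box was found in windows of 2 of the 7 members, against 1.44% of the 27305 genes with such a window. The CREB site core TGACG was found in windows of EGR1, EGR2, KLF4 and IER2, against 24.9% of those genes. These matches describe the letters in the windows and are no measure of binding. The window of IER3 was not in the table, and those of EGR3 and KLF10 are not shown.

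EGR1, which couples growth factor and stress signals to transcription, lies at chr5:138465479-138469303 on the plus strand of GRCh38. Its normalized counts, scaled within a line, were 1055.6 (PBS) and 4207.6 (H2O2) in 22RV1 vector cells and 1140.7 (PBS) and 1631.9 (H2O2) in 22RV1 PAGE4 cells. DU145 cells gave 7646.3 (PBS) and 6083.1 (H2O2) with vector and 5772.5 (PBS) and 3525.7 (H2O2) with PAGE4. Both H2O2 libraries were thus above both PBS libraries in 22RV1 cells, by 3.98-fold in vector cells and 1.43-fold in PAGE4 cells. In DU145 cells each H2O2 library was below its PBS partner, at 0.80 times its level in vector cells and 0.61 times in PAGE4 cells.

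EGR2, known for its part in myelination and in lymphocytes, lies at chr10:62811996-62819167 on the minus strand. Its normalized counts in 22RV1 cells were 10.7 and 123.4 in vector cells with PBS and H2O2, and 9.3 and 63.2 in PAGE4 cells. In DU145 cells they were 59.4 and 108.1 in vector cells and 42.3 and 127.5 in PAGE4 cells. In each line both H2O2 libraries lay above both PBS libraries, and the low 22RV1 PBS libraries rested on 13 and 10 reads.

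EGR3, a close relative that is often induced together with EGR1, lies on the minus strand of chromosome 8. It had 50.3 and 536.1 normalized counts in 22RV1 vector cells with PBS and H2O2, and 29.8 and 156.6 in 22RV1 PAGE4 cells. In DU145 cells it had 30.6 and 50.4 in vector cells, and 8.5, from 9 reads, and 66.4 in PAGE4 cells. Every H2O2 library was above every PBS library of its own line, and the H2O2 libraries of DU145 stayed far below the 22RV1 vector library with H2O2 also per length, at an RPKM (reads scaled to exon length and library size) of 0.383 and 0.498 against 2.85.

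IER2, a nuclear regulator of early transcription, lies at chr19:13150411-13154911 on the plus strand. Reads of IER2 after normalization in 22RV1 cells came to 1422.3 and 2706.4 in vector cells with PBS and H2O2, and 1747.9 and 2208.4 in PAGE4 cells. Those of DU145 cells were 993.0 and 1629.7 in vector cells and 1045.4 and 1693.8 in PAGE4 cells. The response was of about the same size in both DU145 pairs, 1.64-fold and 1.62-fold, and was 1.90-fold and 1.26-fold in the 22RV1 pairs.

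IER3, an ERK substrate that acts on cell survival, lies at chr6:30743199-30744548 on the minus strand. Its normalized counts in 22RV1 cells were 117.8 and 250.7 in vector cells with PBS and H2O2, and 87.5 and 139.5 in PAGE4 cells. In DU145 cells they were 3342.9 and 6190.2 in vector cells and 2993.4 and 6181.2 in PAGE4 cells. H2O2 raised the count in all 4 pairs, between 1.59-fold and 2.12-fold, although the levels of the lines were far apart.

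IER5, a nuclear protein that regulates heat shock factor activity through protein phosphatase 2A, lies at chr1:181088700-181092900 on the plus strand. In 22RV1 cells it had normalized counts of 393.1 and 1781.8 in vector cells with PBS and H2O2, and 372.5 and 798.9 in PAGE4 cells. The DU145 values were 479.8 and 1033.6 in vector cells and 593.2 and 1362.0 in PAGE4 cells. The 22RV1 vector pair stood out with 4.53-fold, and the other 3 pairs lay between 2.14-fold and 2.29-fold.

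KLF2, best known as a factor of quiescent endothelium and lymphocytes, lies at chr19:16324826-16328685 on the plus strand. It had 133.5 and 228.5 normalized counts in 22RV1 vector cells with PBS and H2O2, and 124.8 and 247.4 in 22RV1 PAGE4 cells. In DU145 cells it had 40.8 and 85.0 in vector cells and 126.0 and 139.0 in PAGE4 cells. The DU145 vector library with PBS was also the lowest of the 8 by RPKM, at 0.569, and in DU145 PAGE4 cells the counting interval of the H2O2 difference, -0.22 to 0.50 on the log2 scale, held 0.

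KLF4, a factor of epithelial differentiation and of pluripotent cells, lies at chr9:107484852-107490482 on the minus strand. For 22RV1 cells the normalized counts were 1433.9 and 2475.0 in vector cells with PBS and H2O2, and 2035.6 and 2104.4 in PAGE4 cells. For DU145 cells they were 711.8 and 2067.2 in vector cells and 853.7 and 2336.4 in PAGE4 cells. The DU145 pairs rose by 2.90-fold and 2.74-fold, and the 22RV1 pairs gave 1.73-fold and 1.03-fold.

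KLF6, described as a growth suppressor that is often altered in prostate cancer, lies at chr10:3775996-3785281 on the minus strand. Its normalized counts in 22RV1 cells were 1252.6 and 1641.0 in vector cells with PBS and H2O2, and 1592.3 and 1559.5 in PAGE4 cells. In DU145 cells they were 1880.3 and 4598.3 in vector cells and 2467.0 and 5158.4 in PAGE4 cells. The PBS and H2O2 libraries overlapped in 22RV1 cells and did not in DU145 cells.

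KLF10, an early target of TGF-beta signalling, lies on the minus strand of chromosome 8. The normalized counts of 22RV1 cells were 1029.3 and 1837.7 in vector cells with PBS and H2O2, and 1124.9 and 1324.0 in PAGE4 cells. Those of DU145 cells were 715.5 and 1340.0 in vector cells and 720.2 and 1522.1 in PAGE4 cells. The H2O2 libraries were above the PBS libraries in both lines, least so in 22RV1 PAGE4 cells with 1.18-fold.

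**Figure D1:**
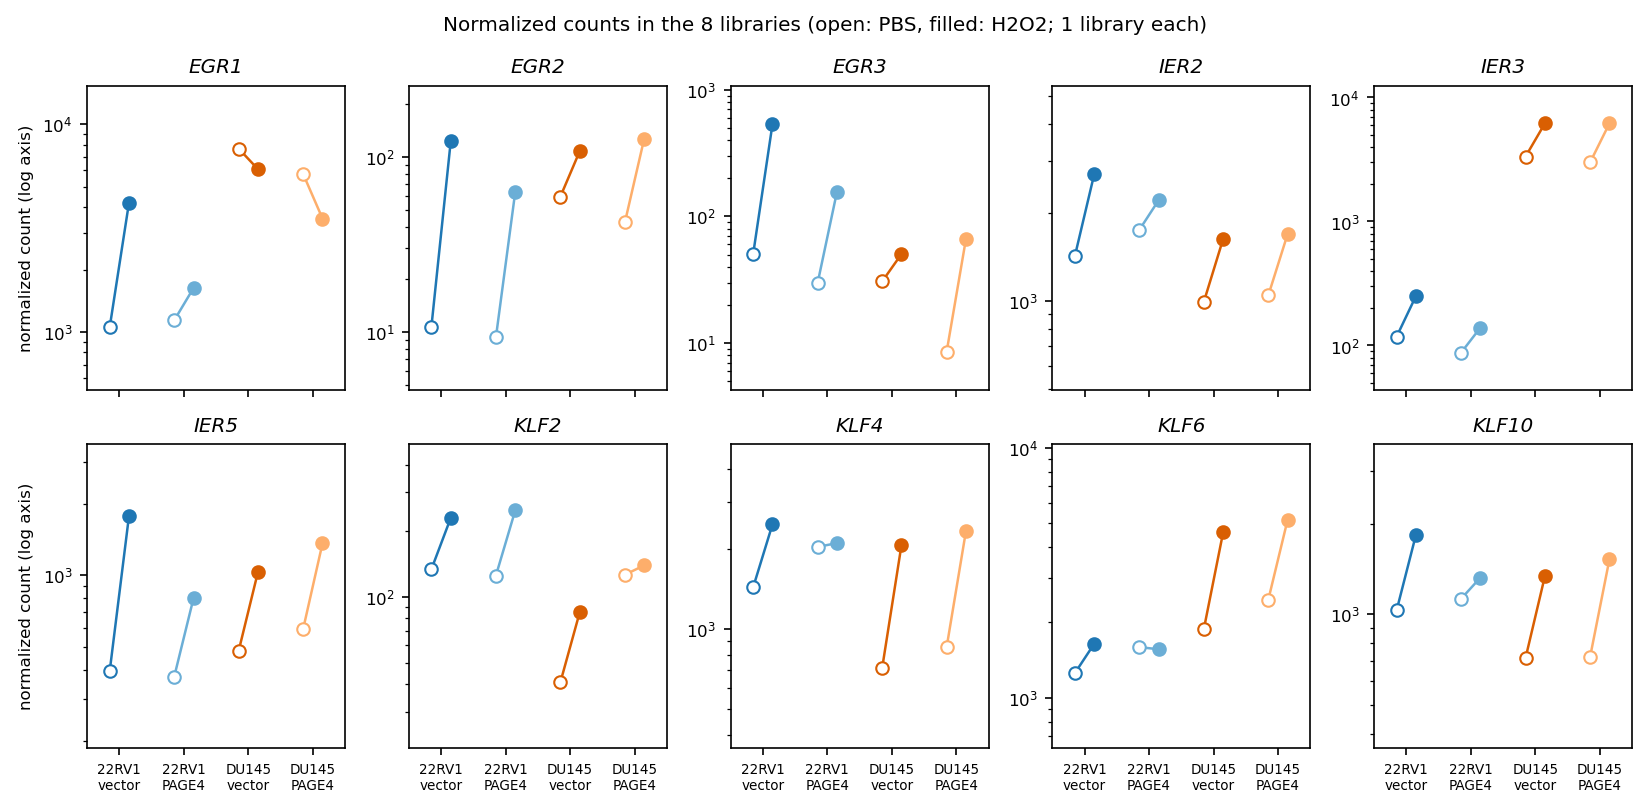
Normalized counts on a log axis for the 10 genes, 1 panel per gene, in 22RV1 and DU145 cells with vector or PAGE4; open circles are PBS and filled circles H2O2 libraries, 1 library each, joined within a pair, and scaled within a line. EGR1 rises in both 22RV1 pairs, from 1055.6 to 4207.6 in vector cells, and falls in both DU145 pairs, and IER3 lies far higher in DU145 cells.

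The members also differed in level, between genes and between lines. On the RPKM scale, which allows genes to be compared, the order of the medians of 4 libraries in 22RV1 cells was IER2 (17.2), KLF4 (15.2), EGR1 (11.9), KLF10 (8.60), KLF6 (6.88), IER5 (3.82), IER3 (2.58), KLF2 (1.73), EGR3 (0.553) and EGR2 (0.268). Neighbours in this order overlapped in range except KLF10 and KLF6. In DU145 cells the order was IER3 (135.0), EGR1 (73.1), KLF6 (22.2), IER2 (16.8), KLF4 (15.4), KLF10 (10.4), IER5 (7.47), KLF2 (1.45), EGR2 (0.870) and EGR3 (0.311). Here neighbours overlapped except EGR1 and KLF6, and IER5 and KLF2. IER3, which ranked low in 22RV1 cells with 1.74 to 4.97, reached 86.9 to 175.0 in DU145 cells.

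**Figure D2:**
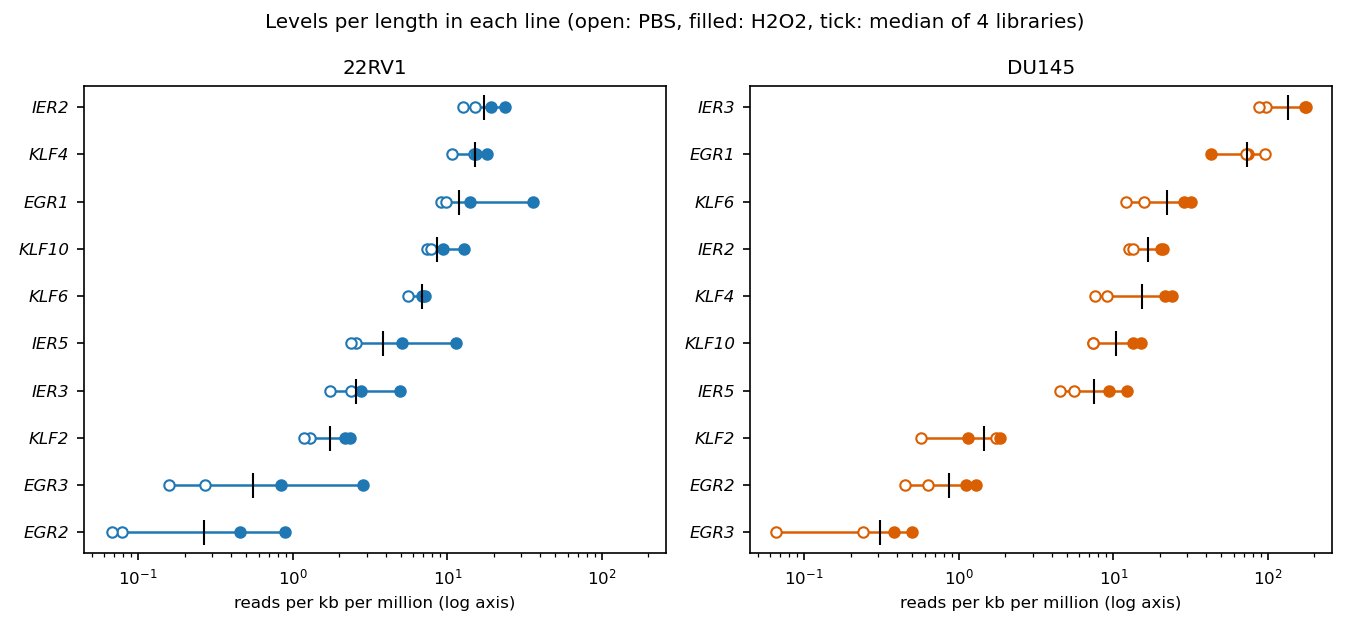
RPKM on a log axis for the 10 genes in 22RV1 cells (left) and DU145 cells (right), ordered by median; circles are single libraries (open PBS, filled H2O2), lines the range and ticks the median of 4. IER3 is at the top in DU145 cells with a median of 135.0 and near the lower end in 22RV1 cells with 2.58.

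The difference between lines was tested over the 4 matched conditions with edgeR's quasi-likelihood test and Benjamini-Hochberg adjustment over 22418 genes, called at an adjusted p under 0.05. IER3 was 45.7-fold higher in DU145 cells (log2 difference 5.51 ± 0.17 SE, edgeR adjusted p = 1.98e-07, higher in 4 of 4 conditions). EGR1 was 4.69-fold higher (log2 2.23, edgeR adjusted p = 0.00104), EGR2 3.38-fold (log2 1.76, adjusted p = 0.0111), KLF6 3.10-fold (log2 1.63, adjusted p = 0.000201) and IER5 1.69-fold (log2 0.76, adjusted p = 0.0292). EGR3 was lower in DU145 cells, with a log2 difference of -1.29 (edgeR adjusted p = 0.0378). IER2, KLF2, KLF4 and KLF10 did not pass, with 95% intervals of -0.32 to 0.18, -1.18 to 0.26, -0.57 to 0.43 and -0.19 to 0.52 on the log2 scale.

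These were 5 members higher and 1 lower of 10, where 28.5% of all genes tested were higher and 31.9% lower. Scaling by total counts in place of TMM moved the median difference of all genes from -0.08 to -0.28. IER5 then missed the threshold (adjusted p = 0.0929), as it did without the vector PBS, PAGE4 PBS or PAGE4 H2O2 libraries (0.0674, 0.104 and 0.117). EGR3 missed it without the vector H2O2, PAGE4 PBS or PAGE4 H2O2 libraries (edgeR adjusted p = 0.161, 0.0711 and 0.0532), and the size of its difference fell to -0.68 in the first of these.

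Condition by condition, without a test, 26 of the 40 line folds of members were over 1.5-fold. With vector and PBS 5 members were higher in DU145 cells (29.9% of genes) and 1, KLF2, lower (33.2%). With vector and H2O2 EGR1, IER3 and KLF6 were higher (30.1%) and EGR3 and KLF2 lower (33.2%). In PAGE4 cells 5 were higher (30.2%) and EGR3 and KLF4 lower (33.4%) with PBS, and 7 were higher (31.1%) and EGR3 lower (34.6%) with H2O2. EGR1 went from 10.5-fold higher in vector cells with PBS to 2.12-fold with H2O2, and KLF4 from 0.72 times to 1.23 times the 22RV1 level.

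The effect of H2O2 was first tested over the 4 pairs of libraries with the same line and construct. The 2 pairs of a line share its cells, and no label says that libraries came from separate cultures, so the p-values measure the spread between these libraries only. In bulk RNA, more cells with a transcript and more RNA per cell cannot be told apart.

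H2O2 raised 7 of the 10 members over the 4 pairs and lowered none, where 8.89% of all genes tested rose and 11.2% fell. EGR3 rose 5.18-fold (log2 2.37 ± 0.44 SE, edgeR adjusted p = 0.00970) and EGR2 4.05-fold (2.02 ± 0.44, adjusted p = 0.0176), each in 4 of 4 pairs. All 3 IER genes rose: IER5 2.58-fold (1.37 ± 0.20 SE, edgeR adjusted p = 0.00413), IER3 1.87-fold (0.91 ± 0.10, adjusted p = 0.00170) and IER2 1.56-fold (0.64 ± 0.11, adjusted p = 0.00851). Of the Krüppel-like factors, KLF4 (1.90-fold, edgeR adjusted p = 0.0257) and KLF10 (1.67-fold, adjusted p = 0.0115) rose. KLF6 and KLF2 came close to the threshold, with log2 differences of 0.65 and 0.70 and edgeR adjusted p = 0.0534 and 0.0609. EGR1 gave a log2 difference of 0.31 with a 95% interval of -0.60 to 1.22 (edgeR adjusted p = 0.624).

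The EGR1 value turned to -0.19 without the 22RV1 vector pair. KLF4 missed the threshold without the 22RV1 vector, DU145 vector or DU145 PAGE4 pair (edgeR adjusted p = 0.0619, 0.0911 and 0.0826), KLF10 missed it without the DU145 vector pair (0.0511), and KLF6 passed it without the 22RV1 PAGE4 pair (0.0203). KLF2 and KLF6 also passed with total counts (edgeR adjusted p = 0.0442 and 0.0306) and with DESeq2's Wald test (0.0273 and 0.0168). Over all genes the split was 1994 higher and 2512 lower, which total counts changed to 2809 and 1795. No direction of a member changed with that scaling.

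Taken pair by pair, with no test, 32 of the 40 H2O2 folds of members were over 1.5-fold in either direction. In 22RV1 vector cells 9 members were over 1.5-fold higher (17.7% of genes), in 22RV1 PAGE4 cells 5 (14.8% of genes), in DU145 vector cells 9 (19% of genes) and in DU145 PAGE4 cells 8 (19.4% of genes). EGR1 was the 1 member over 1.5-fold lower in any pair, in DU145 PAGE4 cells, where 21.9% of genes were. The corresponding shares of genes lower were 19.7% in 22RV1 vector, 15.7% in 22RV1 PAGE4 and 21.3% in DU145 vector cells, with no member among them. The medians of the members were 1.01, 0.59, 0.90 and 1.07 on the log2 scale in these pairs, and those of all genes lay between -0.02 and -0.01.

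**Figure D3:**
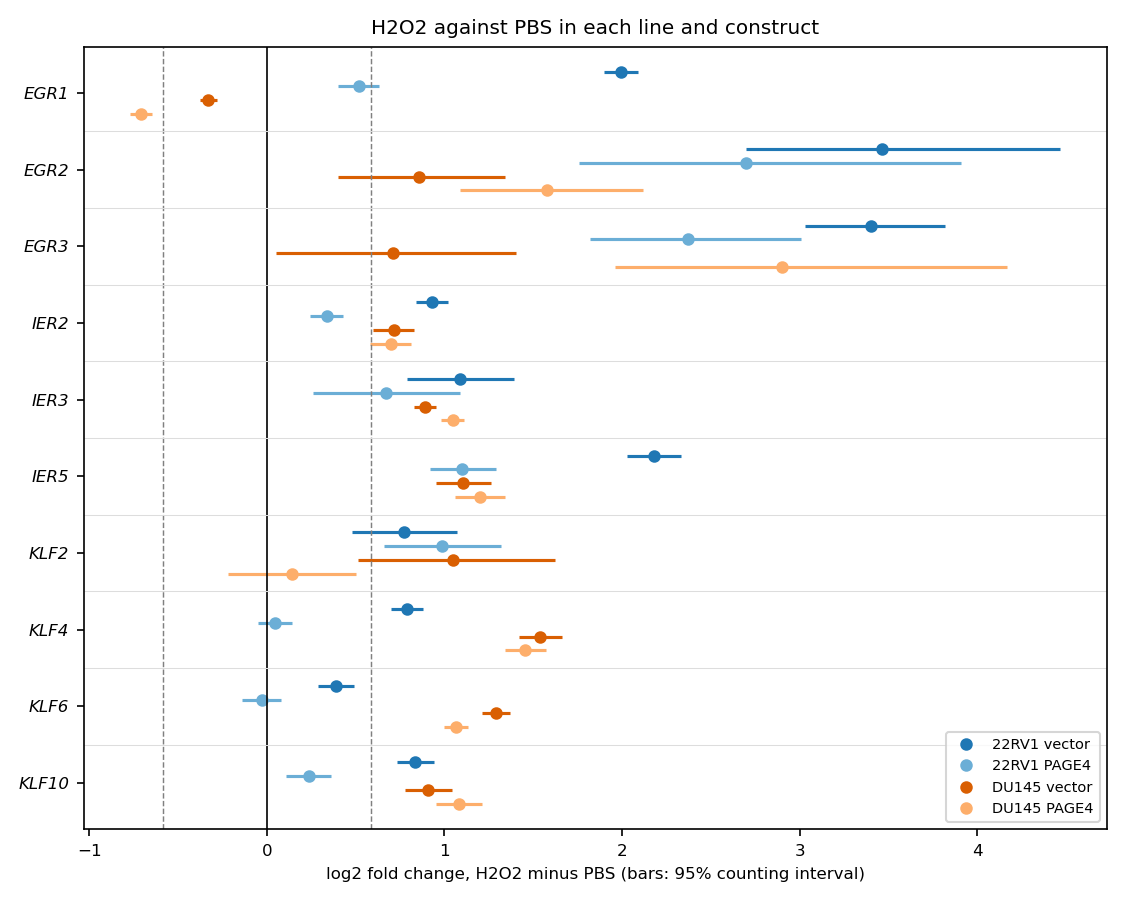
The log2 fold change of H2O2 against PBS for the 10 genes, 1 point for each of the 4 pairs of single libraries, with bars for the 95% counting interval and dashed lines at 1.5-fold. The EGR1 points lie on both sides of 0, from -0.71 to 1.99, and the 22RV1 PAGE4 points lie at or left of the 22RV1 vector points for all members but KLF2.

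Within the lines the H2O2 effect could be estimated from 2 pairs each, in a fit that also tests the difference between lines. In 22RV1 cells 9 members rose and none fell, against 12.8% and 14.9% of genes, and KLF6 did not pass (log2 0.17, edgeR adjusted p = 0.253). In DU145 cells 8 members rose, against 16.9% of genes, EGR1 fell, as 19.8% of genes did, and KLF2 did not pass (log2 0.49, edgeR adjusted p = 0.185). Without the 22RV1 vector pair, IER2, KLF4 and KLF10 lost their call in 22RV1 cells, with log2 effects of 0.33, 0.04 and 0.23 in the remaining pair, and KLF2 lost it without the 22RV1 PAGE4 pair (0.73). KLF6 passed there without the 22RV1 PAGE4 pair (0.35, edgeR adjusted p = 0.0209) and with total counts (0.30, 0.0406). Where 1 pair of a line is left, that pair is assumed to vary like the pairs of the other line. Without the DU145 PAGE4 pair, EGR1, EGR2 and EGR3 lost theirs in DU145 cells, at -0.37, 0.82 and 0.67. DESeq2's Wald test did not call EGR1, KLF2 and KLF4 in 22RV1 cells (adjusted p = 0.0535, 0.0951 and 0.0529) or EGR1 and EGR2 in DU145 cells (0.441 and 0.0633). With additive terms in place of pair blocks, KLF2 and KLF4 in 22RV1 cells (edgeR adjusted p = 0.114 and 0.0700) and EGR1 in DU145 cells (0.0898) did not pass. With total counts, the share of called genes that rose in 22RV1 cells moved from 46.1% to 64.4%.

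The response of 4 members differed between the lines, 2 in each direction. EGR1 rose in 22RV1 cells (log2 1.27 ± 0.21 SE) and fell by 0.57 ± 0.19 in DU145 cells, and the difference of -1.83 passed (edgeR adjusted p = 0.000221). EGR2 rose in both lines, by 3.16 and 1.17 on the log2 scale, and the difference of -1.99 passed (edgeR adjusted p = 0.0148). KLF4 rose by 0.41 in 22RV1 and 1.45 in DU145 cells (difference 1.04, edgeR adjusted p = 0.000803), and KLF6 gave 0.17 and rose by 1.13 (difference 0.96, adjusted p = 0.000191). The background was 8.76% of genes with a lower and 7.54% with a higher log2 effect in DU145 cells.

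The IER genes did not pass this test. IER2 gave 0.62 in 22RV1 and 0.66 in DU145 cells, with an interval of the difference from -0.32 to 0.39, and IER3 gave 0.91 and 0.92, with an interval from -0.36 to 0.39. IER5 gave 1.65 and 1.11 (difference -0.55, edgeR adjusted p = 0.153), and the difference was 0.05 without the 22RV1 vector pair and -1.0 without the 22RV1 PAGE4 pair. EGR3, KLF2 and KLF10 gave differences of -1.37, -0.38 and 0.42 (edgeR adjusted p = 0.129, 0.569 and 0.138). EGR3 passed without the 22RV1 PAGE4 pair (-1.77, adjusted p = 0.00413) or the DU145 PAGE4 pair (-2.28, 0.00371), and KLF10 passed without the 22RV1 vector pair (0.76, 0.000374). The EGR2 difference was lost without the 22RV1 vector pair (-1.52, edgeR adjusted p = 0.104) or the DU145 vector pair (-1.62, 0.119), and DESeq2's Wald test called neither EGR1 (adjusted p = 0.0641) nor EGR2 (0.0730).

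**Figure D4:**
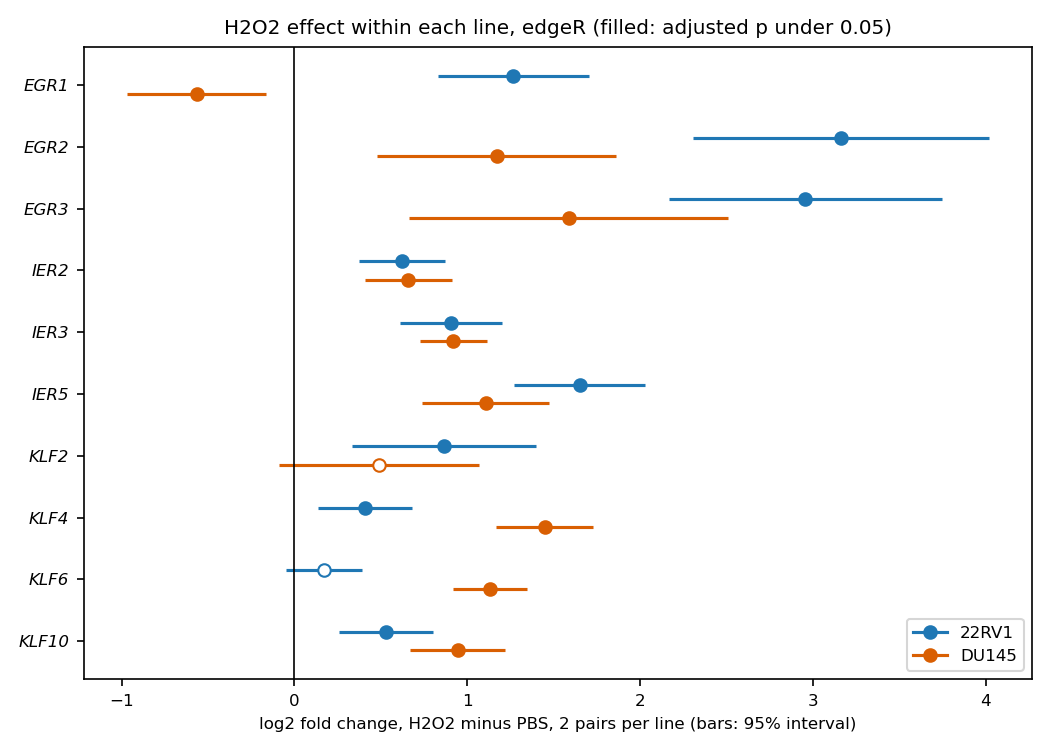
The log2 effect of H2O2 in 22RV1 cells (blue) and DU145 cells (orange) for the 10 genes, from the edgeR fit with 2 pairs per line; bars are 95% intervals and filled circles passed an adjusted p of 0.05. EGR1 lies at 1.27 in 22RV1 and -0.57 in DU145 cells, KLF4 and KLF6 lie further right in DU145 cells, and the IER2 and IER3 points of the lines nearly coincide.

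PAGE4 was then compared with vector over the 4 pairs of the same line and treatment, from the same 8 libraries as the H2O2 comparisons. Each line had a single PAGE4 pool and a single vector pool. Here and below, PAGE4 therefore cannot be told apart from other differences between these pools. None of the 10 members passed in edgeR, where 0.0981% of genes were higher and 0.0758% lower, and none passed with DESeq2's Wald test. At an unadjusted p under 0.05, where edgeR gave 1731 of 22418 genes, there were 4 members. Their log2 differences were -0.63 for EGR1, -0.97 for EGR3, -0.29 for IER3 and 0.20 for KLF6, and the lowest edgeR adjusted p of the 10 was 0.302, for EGR1.

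In 22RV1 cells, from 2 pairs, 3 members were lower with PAGE4 and none higher, where 2.14% of genes were lower and 2.15% higher. They were EGR3 (log2 -1.39 ± 0.37 SE, edgeR adjusted p = 0.0397), IER3 (-0.66, adjusted p = 0.0104) and IER5 (-0.66, adjusted p = 0.0427). Without the H2O2 pair their values were -0.76, -0.43 and -0.08, from the PBS pair alone. None of the 3 passed with additive terms in place of pair blocks (edgeR adjusted p = 0.803, 0.316 and 0.796), and with DESeq2's Wald test EGR3 and IER5 did not (0.205 and 0.0941). EGR1 gave -0.66 (edgeR adjusted p = 0.0899), with -1.35 from the H2O2 pair alone and 0.11 from the PBS pair alone. The EGR1 value comes from the 22RV1 pairs, so its -0.65 with either DU145 pair left out is no check of it. KLF10 gave -0.45 from the H2O2 pair alone, and KLF4 gave 0.50 from the PBS pair alone. A single pair has no spread of its own, so these values carry no test.

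In DU145 cells no member passed in edgeR or with DESeq2's Wald test, where edgeR called 0.112% of genes higher and 0.058% lower. At an unadjusted p under 0.05, where edgeR gave 1685 of 22418 genes, there were 3 members. They were KLF2 (log2 1.13, edgeR adjusted p = 0.144), EGR1 (-0.60, 0.345) and KLF6 (0.27, 0.520). These log2 values come from the DU145 pairs, so leaving out a 22RV1 pair could not test them.

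The PAGE4 difference itself differed between lines for IER5, by 1.01 on the log2 scale, from -0.66 in 22RV1 to 0.34 in DU145 cells (edgeR adjusted p = 0.0452), where 0.977% of genes were higher in this test. The IER5 difference was 0.43 without the 22RV1 H2O2 pair and 0.95 without the DU145 H2O2 pair, each leaving a single pair in 1 line. It did not pass with DESeq2's Wald test (0.96, adjusted p = 0.0725) or with additive terms (1.02). Without the 22RV1 PBS pair, which leaves a single 22RV1 pair, EGR1 gave 0.75, EGR3 1.43, IER3 0.74 and KLF10 0.55. Without the 22RV1 H2O2 pair EGR1 gave the opposite direction, at -0.71.

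**Figure D5:**
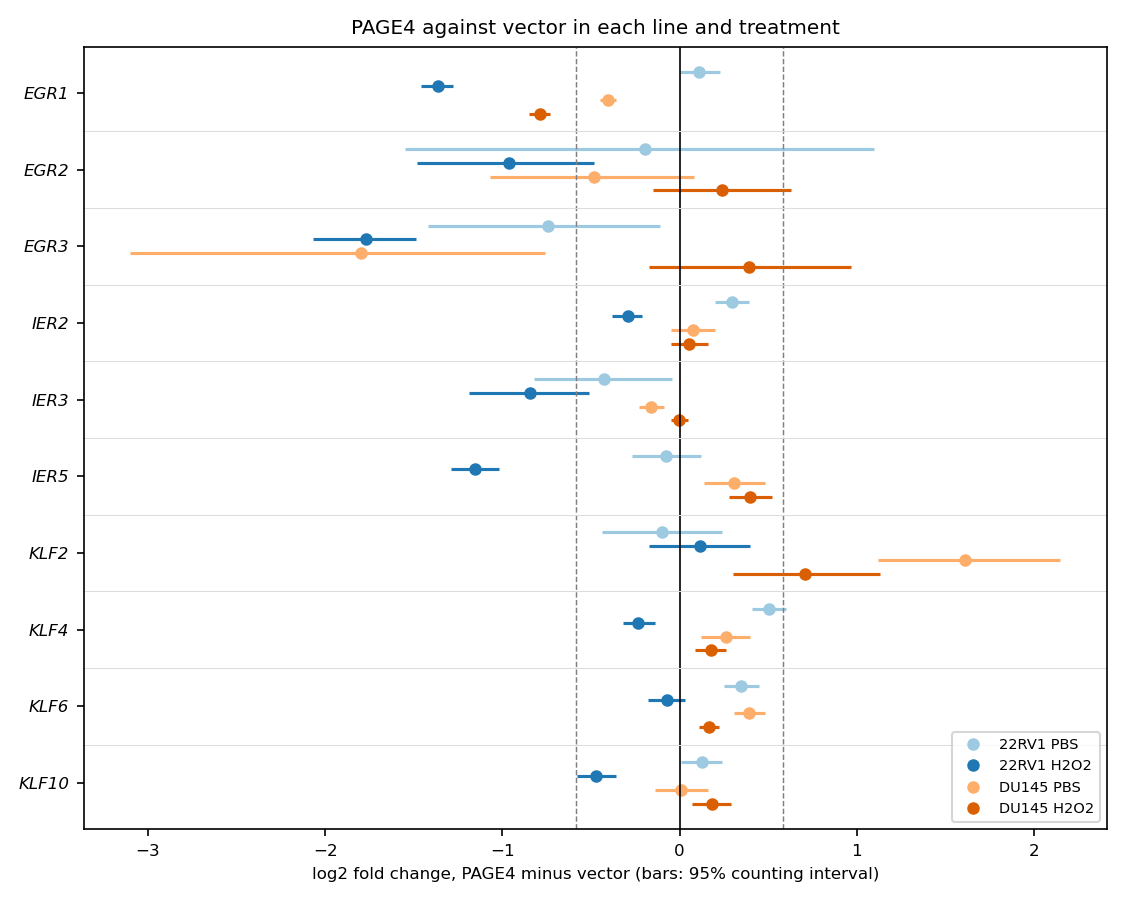
The log2 fold change of PAGE4 against vector for the 10 genes in each line and treatment, 1 point for each pair of single libraries, with bars for the 95% counting interval and dashed lines at 1.5-fold. In 22RV1 cells with H2O2, 9 points lie left of 0 and 5 of them past 1.5-fold, with EGR3 at -1.77 and EGR1 at -1.37.

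Pair by pair, 5 members were over 1.5-fold lower in PAGE4 cells in 22RV1 cells with H2O2, against 12.1% of genes. They were EGR1 (0.39 times the vector level), EGR2 (0.51), EGR3 (0.29), IER3 (0.56) and IER5 (0.45). In 22RV1 cells with PBS, EGR3 was the 1 member past this limit (0.60 times), where 11.3% of genes were lower and 8.35% higher. In DU145 cells, EGR3 was lower (0.29 times, 7.76% of genes) and KLF2 higher with PBS (3.06-fold, 7.54% of genes), and EGR1 lower (0.58 times, 8.2% of genes) and KLF2 higher with H2O2 (1.63-fold, 7% of genes).

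Whether the H2O2 response differs with PAGE4 was asked directly. No member passed in edgeR over both lines, none had an unadjusted p under 0.05, and none passed with DESeq2's Wald test. Over all 22418 genes edgeR called 0 (0%), with 59 at an unadjusted p under 0.05, and DESeq2's Wald test called 0, with 26 at that limit. Without the DU145 vector pair EGR1 gave a difference of -2.10, and without the 22RV1 vector pair 0.22, against -0.92 from all 4 pairs.

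In 22RV1 cells alone, 9 of 10 members had a smaller log2 effect of H2O2 in PAGE4 than in vector cells, KLF2 being the exception, with a median difference of -0.67. Against this, 50.9% of all genes, and 75.1% of the 2730 genes called higher with H2O2 in 22RV1 cells, had a smaller effect in PAGE4 cells. The differences of EGR1 (-1.48, 95% counting interval -1.62 to -1.33), IER5 (-1.08, -1.31 to -0.85), EGR3 (-1.03, -1.71 to -0.35) and KLF4 (-0.74, -0.87 to -0.61) lay outside counting error, as did those of IER2 (-0.59), KLF6 (-0.42) and KLF10 (-0.60), and the intervals of EGR2, IER3 and KLF2 held 0. In DU145 cells 5 of 10 members had a smaller effect in PAGE4 cells, with a median of 0.04, and 48.1% of the 3646 genes called higher there did. EGR3 went the other way in DU145 cells (2.19, interval 1.00 to 3.38), from a PBS library with 9 reads. With 1 library per condition these differences within a line have no replicate check and were not tested.

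The other family members moved in both directions. Of 12 tested, 2 rose over the 4 pairs and 3 fell, where 8.89% of all genes rose and 11.2% fell. EGR4 rose most (log2 3.38, edgeR adjusted p = 0.000774), from 3 to 24 reads in the PBS libraries. KLF12, KLF15 and KLF9 fell by 1.13, 0.71 and 0.70 on the log2 scale, and KLF15 had 20 to 44 reads in DU145 cells. The directions were opposite in the lines for IER5L, which rose in 22RV1 cells (0.81) and fell in DU145 cells (-0.54, difference -1.35), and for KLF11 (-0.48 and 0.37, difference 0.86) and KLF7 (-0.39 and 0.47, difference 0.86), which fell in 22RV1 and rose in DU145 cells. KLF13 rose in 22RV1 cells (0.59) and did not pass in DU145 cells (difference -0.51). The remaining 8 did not pass that test.

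Of 9 upstream factors and co-repressors, 2 rose and 2 fell over the 4 pairs, against 8.89% and 11.2% of all genes. SRF, the serum response factor that binds CArG boxes, rose by 0.62 on the log2 scale and ELK3, a ternary complex factor, by 0.69 (edgeR adjusted p = 0.00614 and 0.00704). MKL2, a serum response factor coactivator now named MRTFB, fell by 0.64 and CREB1 by 0.36. NAB1 and NAB2 were among the 5 that did not pass.

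Of 14 other early response transcription factors, 9 rose over the 4 pairs (8.89% of genes), none fell (11.2%) and 5 did not pass. Within the lines 13 rose in 22RV1 cells (12.8% of genes), where MYC fell (-1.0, 14.9% of genes). In DU145 cells 10 rose (16.9% of genes) and NR4A1 fell (-0.58, 19.8% of genes). FOSB (3.60), FOSL1 (3.01), ATF3 (1.97) and JUN (1.89), all components of AP-1 or its partners, had the largest log2 effects. FOSL1 rose less in DU145 cells (difference -3.27) and FOSB more (2.08). NR4A3 and FOSL2 rose in 22RV1 cells and did not pass in DU145 cells (differences -2.60 and -1.92).

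Of 18 feedback genes 11 rose over the 4 pairs and none fell, against 8.89% and 11.2% of all genes. They were led by the MAP kinase phosphatases DUSP5 (2.95), DUSP6 (1.54) and DUSP8 (1.27) and the antiproliferative gene BTG2 (2.02). BTG1, DUSP4 and BTG2 rose in both lines, BTG1 more in DU145 cells (difference 1.52) and DUSP4 and BTG2 less (-2.54 and -1.70). SPRY4 rose in DU145 cells (2.85, difference 2.80) and did not pass in 22RV1 cells. Of 16 effector genes 11 rose over the 4 pairs and none fell, against the same shares of all genes. GDF15 (3.87), GADD45A (2.55), HBEGF (1.97) and SGK1 (1.47) came first. PLAUR fell in 22RV1 cells (-0.80) and rose in DU145 cells (2.14, difference 2.95), and CYR61 rose in 22RV1 cells (1.6) and fell in DU145 cells (-0.77, difference -2.36). GDF15 rose in both (5.13 and 2.21, difference -2.92), and AREG rose in 22RV1 cells (2.86, difference -2.72) and did not pass in DU145 cells.

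Described targets of EGR and KLF factors showed no common direction. Of 10, CDKN1A (log2 2.61) and PDGFA (1.27) rose, KRT19 fell by 0.63, and 7 did not pass. Of all genes 8.89% rose and 11.2% fell in this test over the 4 pairs. Between the lines, F3 fell in 22RV1 cells (-1.19) and rose in DU145 cells (0.69, difference 1.88), CDKN1A rose in both (3.10 and 2.11, difference -0.99), and ENG fell in DU145 cells (-1.05, difference -1.31) and did not pass in 22RV1 cells.

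The profiles of the members over the 8 libraries were compared with those of 12321 genes by the root mean square difference of centred log2 normalized counts, as a description. The nearest were GNAI1 and UBTD1 to EGR1 (0.304 and 0.322), GEM and TNFRSF12A to EGR2 (0.277 and 0.395), and ORAOV1 and SLC25A25 to IER2 (0.054 and 0.065). SPG20 was the nearest to IER3 (0.294), and ZYX and FOXO3B were to IER5 (0.199 and 0.248). KLF2 was nearest to RP11-834C11.4 and AC112497.1 (0.246 and 0.256), KLF4 to TRIB1 and PBDC1 (0.122 and 0.136), KLF6 to DDX18 and RIPK2 (0.155 and 0.157), and KLF10 to USP38 and CREBBP (0.075 and 0.079). EGR3 had too few reads in DU145 cells for this comparison. The median difference over all genes lay between 0.57, for IER2, and 2.81, for IER3. Among the members themselves IER2 and KLF10 were the closest pair (0.175) and IER3 and KLF2 the farthest (3.04).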

How the data were processed

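RNA-seq libraries of 22RV1 and DU145 cells were analysed, 1 for each of 8 conditions. For alignment the authors used HISAT2 2.1.0 on GRCh38, and featureCounts 1.6.0 gave the deposited counts, which are raw reads per gene symbol. The annotation release and the strand setting are not given in the sources used here. Without strand, reads of EGR3, IER2, IER3 and KLF4 cannot be told from opposite-strand genes that overlap them in GENCODE release 44, and EGR2 overlaps a noncoding gene on its own strand. The labels name Trizol for RNA, and the sequencing methods name a column kit.

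Counts were divided by DESeq2 1.42.0 size factors, computed within a line, or over all 8 libraries for folds between lines. Folds of 2 libraries used a pseudocount of 0.5, a limit of 1.5-fold and genes whose mean was 10 normalized reads or more, with 95% Clopper-Pearson intervals that cover counting error only. RPKM values used GENCODE exon lengths and TMM-scaled library sizes. Tests used edgeR 4.0.16 (quasi-likelihood, TMM, filterByExpr, pairs as blocks) in R 4.3.3, two-sided, with Benjamini-Hochberg adjustment over 22418 genes at 0.05. On simulated counts of that many genes with a known H2O2 effect, the test was checked before use. Tables used Python 3.11.15, numpy, pandas and scipy.

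The members and gene lists were chosen with earlier results of these data known. Named genes are the members, up to 4 genes of each other list with the largest log2 change among those passing for the H2O2 effect and for its difference between lines, and the 2 genes nearest to each member with a mean of at least 50 in both lines. Of 81 listed genes, 81 were found, 4 by an older symbol. Alternatives were other scalings, no filter, DESeq2's Wald test, additive terms, each pair left out, and other limits for folds. Some genes that this rule selects are not reported here.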

Additional observations from a re-analysis of the deposited data

Results flagged for a closer look

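The H2O2 effect differed between the lines for 4 members by the test of the difference itself in edgeR, given as DU145 minus 22RV1 on the log2 scale. EGR1 gave -1.83, with a rise in both 22RV1 pairs and a lower count in both DU145 pairs. EGR2 gave -1.99, with a rise in all 4 pairs that was smaller in DU145 cells. KLF4 gave 1.04 and KLF6 gave 0.96, with the larger rise in DU145 cells.

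The difference between PAGE4 and vector cells differed between the lines for IER5, by 1.01 on the log2 scale. Its counts were lower with PAGE4 in 22RV1 cells with H2O2 and higher in both DU145 pairs.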

How the results depend on the processing

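H2O2 raised 5 to 8 members with 1 pair left out and 7 to 9 under the other settings, against 7, and EGR1 ran from -0.19 to 0.69. Of all genes tested, 787 to 1826 rose with 1 pair left out and 2007 to 2809 under the other settings, against 1994. The H2O2 effect differed between lines for 2 members with DESeq2's Wald test, against 4. Of all genes, 2698 of 14236 did so with the Wald test, against 3655 of 22418. The IER5 difference ran from -1.0 to 0.05, with 1 pair left out. Within 22RV1 and DU145 cells the number of H2O2 calls stayed within 1.5 times, and KLF6 in 22RV1 cells ran from -0.04 to 0.35. For the H2O2 effect between constructs EGR1 ran from -2.1 to 0.22 with 1 pair left out. PAGE4 calls moved more. With no filter 2 members passed over the 4 pairs (EGR1 and EGR3), 2 for the difference between lines and 2 in DU145 cells. Of all 41771 genes 483, 806 and 217 passed in these, against 39, 413 and 38 of 22418 with the filter. The Wald test and additive terms both gave 0 members for the difference between lines (329 and 5 of all genes). In 22RV1 cells they gave 1 and 0 members (636 and 44 of all genes). With 1 pair left out, 1 line kept a single pair, so only effect sizes of PAGE4 are given. For the difference between lines EGR1 then ran from -0.71 to 0.75, EGR3 from -0.47 to 1.77 and KLF10 from -0.03 to 0.55. In 22RV1 cells EGR1 ran from -1.35 to 0.11, KLF4 from -0.21 to 0.50 and KLF10 from -0.45 to 0.12. These causes were not tested. At 2-fold in place of 1.5-fold, 19 H2O2 folds, 5 PAGE4 folds and 20 line folds of 40 each passed, against 32, 10 and 26. The share of all genes over 2-fold was not counted, so these counts have no background.

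No paired analysis by replicate number was possible because the labels give none, and the blocks used are pairs of conditions. With 1 library per condition, differences between single pairs cover counting error alone. EGR2 in 22RV1 and EGR3 in DU145 PAGE4 cells held 9 to 13 reads with PBS, which limits those folds.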
